A study of Mus musculus with 8 samples.

Results

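Nucleoporins are the proteins of the nuclear pore complex, the channel through which all regulated traffic crosses the nuclear envelope. The members described here are 30 genes given by name, and the transcript values of each symbol were summed. All 30 were found among the 34976 symbols used. Of these, 29 had a mean of at least 1 FPKM (fragments scaled by transcript length and by library total) over the 8 libraries and were tested among 11755 genes in all, and Nup210 alone lay below that level. The members were grouped by their place in the pore: 9 in the Y complex of the outer rings, 5 in the inner ring, 3 in the central channel, 7 at the cytoplasmic face, 3 in the nuclear basket and 3 in the membrane ring.

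The pore is built in layers. Y complexes stack into rings on both faces of the envelope, the inner ring spans the membrane hole and holds the channel proteins, and transmembrane nucleoporins anchor the whole. Nucleoporins with phenylalanine-glycine (FG) repeats fill the channel and bind transport receptors, the cytoplasmic filaments take part in the last step of mRNA export, and the basket faces the chromatin. In the early embryo the pores are assembled from maternal supplies at first, and each cleavage rebuilds the nuclear envelope.

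The embryos were of CF-1, an outbred mouse stock, and both groups had been injected at the early 1-cell stage and were collected at the late 2-cell stage. The scrambled group (4 libraries) received a morpholino of scrambled sequence as negative control, and the Med13 morpholino group (4 libraries) received one directed against Med13, a subunit of the Mediator kinase module. A morpholino is a synthetic antisense oligomer that interferes with translation or splicing of the RNA it pairs with. Each library came from a separate collection of 40 embryos, so the values are averages over pooled embryos. A change of a gene in some cells and a smaller change in all cells cannot be told apart in them. FPKM are scaled by the library total, so the values are relative within a library. A change in total RNA per embryo would not show in them. By its title, the study asked what MED13 does in zygotic genome activation.

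Library totals read back from the FPKM values were 31378977 to 48050262 fragments. Med13 RNA itself was 38.2 to 47.5 FPKM in the scrambled libraries and 39.4 to 43.9 FPKM in the Med13 morpholino libraries (difference in mean log2(FPKM + 1) 0.03, exact two-sided permutation p = 0.629 over 70 assignments, smallest possible p 0.0286). A morpholino can leave the level of its target RNA as it is, and the labels were not checked by this value. Of 10 oocyte and 2-cell markers, 9 had a mean of at least 1 FPKM. Their summed level was 640 to 780 FPKM in the scrambled libraries and 897 to 1082 FPKM in the Med13 morpholino libraries. Cumulus cell markers reached that level for 1 of 11 genes (Amhr2), sperm markers for 0 of 4, blood markers for 1 of 4 (Cd68) and oviduct markers for 2 of 5 (Epcam and Ovgp1), and no marker was at 0 in every library. Among these 4 lists, the summed levels of the 2 groups overlapped. The sum of the oocyte and 2-cell markers differed between the groups without overlap. It does not show which of these markers differed, and its part in the results on nucleoporins was not tested.

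The start regions of 4 members that passed the test, 2 that rose and 2 that fell, are shown so that their sequence can be read beside their values. They are RefSeq sequences of build GRCm38.p6, 5′ to 3′ on the gene's strand, cut where the GENCODE M21 gene begins. Capitals mark matches on either strand to the motifs searched.
Nup214: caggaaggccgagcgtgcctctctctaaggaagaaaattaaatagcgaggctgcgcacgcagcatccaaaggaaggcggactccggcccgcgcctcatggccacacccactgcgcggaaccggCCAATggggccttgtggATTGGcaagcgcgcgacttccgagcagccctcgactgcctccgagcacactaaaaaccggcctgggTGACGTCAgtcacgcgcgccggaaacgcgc
Nup50: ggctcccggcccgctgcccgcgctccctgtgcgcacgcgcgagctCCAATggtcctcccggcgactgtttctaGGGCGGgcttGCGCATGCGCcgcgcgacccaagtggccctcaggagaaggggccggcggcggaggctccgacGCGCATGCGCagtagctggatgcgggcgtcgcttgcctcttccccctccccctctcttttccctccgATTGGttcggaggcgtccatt
Nup153: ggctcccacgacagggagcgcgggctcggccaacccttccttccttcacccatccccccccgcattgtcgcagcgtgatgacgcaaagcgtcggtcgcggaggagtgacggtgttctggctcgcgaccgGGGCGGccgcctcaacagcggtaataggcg
Nup188: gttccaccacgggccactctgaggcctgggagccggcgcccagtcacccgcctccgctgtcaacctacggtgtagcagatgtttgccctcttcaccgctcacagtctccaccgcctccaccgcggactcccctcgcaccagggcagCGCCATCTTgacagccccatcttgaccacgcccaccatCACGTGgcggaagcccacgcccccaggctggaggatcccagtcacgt
The stretches lie at chr2:31974200-31974435 (plus strand) for Nup214, chr15:84923178-84923410 (plus strand) for Nup50, chr13:46727941-46728099 (minus strand) for Nup153 and chr2:30286166-30286396 (plus strand) for Nup188. That of Nup214 holds a CCAAT box (CCAAT) on each strand and a cAMP response element (TGACGTCA). That of Nup50 holds a CCAAT box on each strand, a GC box (GGGCGG) and 2 palindromic stretches that match the NRF1 motif (GCATGCGC) on both strands. Nup153 has 1 GC box there, and Nup188 has 1 YY1 motif (AAGATGGCG, on the other strand) and 1 E-box (CACGTG).

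A RefSeq start region was at hand for 26 of the 30 members, all but Nup85, Nup43, Seh1l and Nup35. In the 250 bases before the start, counted by gene for the members and by entry for all 32851 promoters, GC boxes were present in 57.7% of members against 32.7% of all, CCAAT boxes in 38.5% against 33.8% and the ETS core CCGGAAG in 23.1% against 6.9%. E-boxes were found in 15.4% of members (4 of 26) against 6.0% of all, and NRF1 motifs in 11.5% (3 of 26) against 2.3%. YY1 motifs were found in 7.7% (2 of 26) against 0.6%, and cAMP response elements in 7.7% (2 of 26) against 1.5%. The 2 members with a YY1 motif were Nup188 and Nup50. That of Nup50 lies in the 250 bases counted but not wholly in the shorter stretch shown above. TATA boxes (TATAAA) were found in 11.5% (3 of 26) against 12.4%. These shares rest on few genes. For the 3 members with 2 entries, a match in either entry counted. Both strands were searched and no motif of this set contains another. The members' start regions were also richer in G and C (median 63.2% against 52.4% for all), and the shares were not compared at equal base composition. These matches describe letters only, and no binding was measured.

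The levels of the members spanned a wide range. They were compared per transcript length, by the most abundant transcript of each gene. In the scrambled libraries Pom121 (59.8 ± 18.0 FPKM) and Nup153 (47.4 ± 20.002 FPKM) had the highest means, followed by Ranbp2 (33.6 ± 2.27 FPKM), Tpr (29.5 ± 6.04 FPKM), Ahctf1 (28.8 ± 5.83 FPKM), Nup214 (20.97 ± 5.33 FPKM) and Nup98 (19.8 ± 5.17 FPKM). In the Med13 morpholino libraries the order was Pom121 (51.7 ± 15.8 FPKM), Nup214 (47.2 ± 12.4 FPKM), Tpr (32.6 ± 5.27 FPKM), Ranbp2 (25.3 ± 3.14 FPKM), Nup153 (24.3 ± 4.15 FPKM), Nup98 (23.5 ± 2.58 FPKM) and Ahctf1 (22.4 ± 2.27 FPKM). Neighbours in each order differed by less than the sum of their SDs. The same 7 members led in both groups, and only Pom121 kept its rank. At the other end stood Nup210 (0.348 FPKM over all 8 libraries) and Ndc1 (0.679 FPKM), so that of the 3 transmembrane nucleoporins only Pom121 was abundant.

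Values within a group moved together across the nucleoporins. Scrambled replicate 2 was the lowest scrambled library for 23 of the 29 members, with a median deviation of -0.36 from the group mean on the log2(FPKM + 1) scale, against -0.16 over all genes tested. Among the Med13 morpholino libraries, replicate 4 was the highest for 19 members (median deviation 0.21, against 0.10 over all genes) and replicate 1 the lowest for 15 (-0.18, against -0.07). The labels name no batch, and what sets these libraries apart was not tested.

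**Figure D1:**
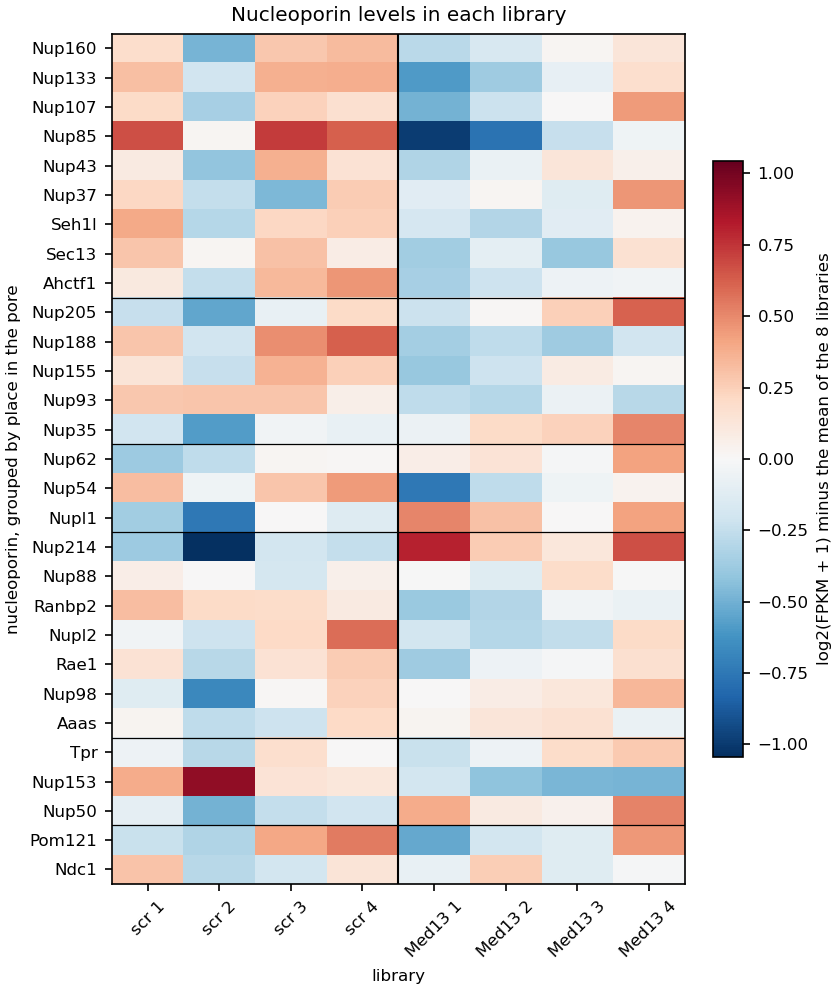
Log2(FPKM + 1) of the 29 nucleoporins in each library minus the member's mean over the 8 libraries, by place in the pore, red above and blue below that mean. The column of scrambled replicate 2 is blue for most members but dark red for Nup153, and the column of Med13 morpholino replicate 4 is red for most members, with Nup153, Nup93 and Nup188 the deepest blue among the exceptions.

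After Med13 morpholino, 7 of the 29 nucleoporins tested had changed. Nup214, Nupl1 and Nup50 rose, and Nup85, Nup153, Nup188 and Nup93 fell (limma, adjusted p below 0.05 over all genes tested). This is 24.1% of the members, and 17.1% of all genes tested passed the same test, 9.29% as higher and 7.81% as lower. Over the 29 members, 12 differences were positive and 17 negative, with a median of -0.14. Of all 11755 genes tested, 5233 had positive and 6522 negative differences, with a median of -0.06. The 7 belonged to 5 of the 6 places in the pore, the exception being the membrane ring. With FPKM rescaled by median ratios, 4 members were called higher and 2 lower, with Nup35 gained and Nup153 and Nup93 lost, while 18.7% of all genes were called. Without scrambled replicate 2, 1 member was called higher (Nup214) and 6 lower (Nup85, Nup188, Nup153, Nup93, Nup54 and Nup133), and 20.3% of all genes were called. With libraries weighted by their quality, 3 members were called higher and 11 lower, where 36.9% of all genes were called. With no filter on low values, 34976 genes entered both the fit and the adjustment. Here 0 members and 2.89% of all genes were called (limma, adjusted p 0.0584 to 0.117 for the 7 members).

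**Figure D2:**
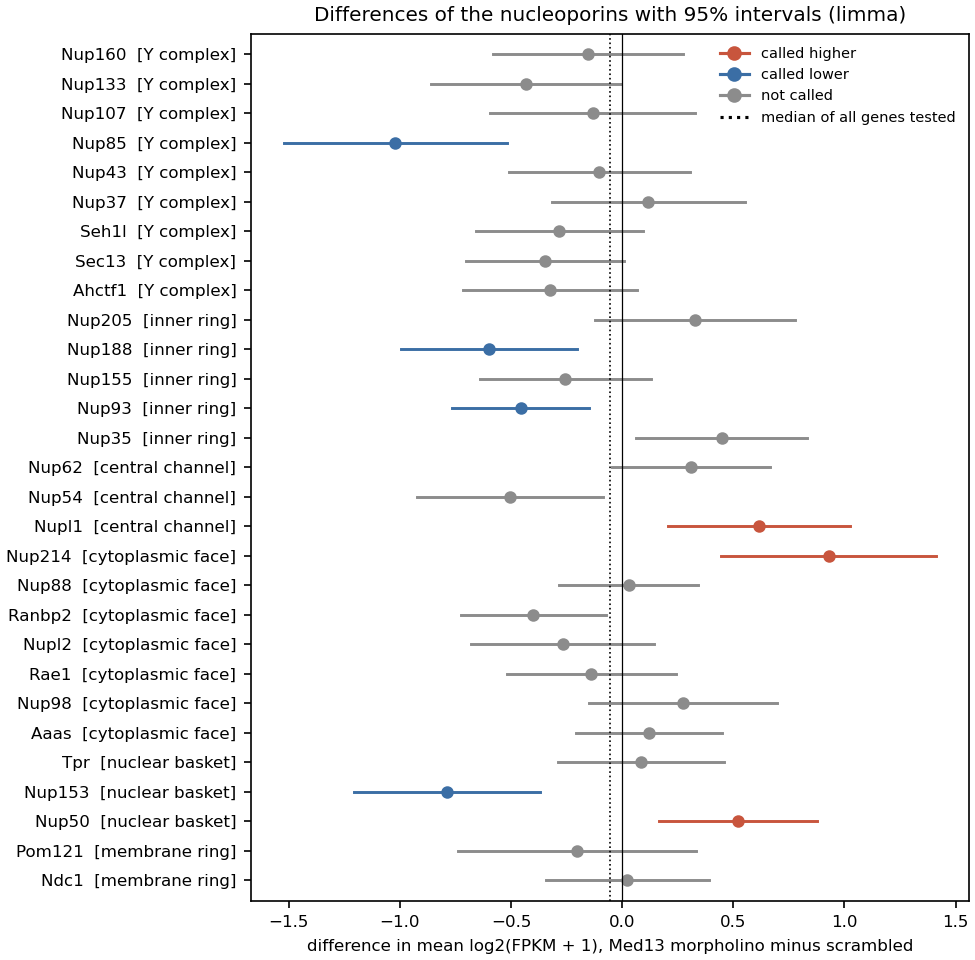
Difference in mean log2(FPKM + 1), Med13 morpholino minus scrambled, for the 29 nucleoporins tested, with 95% intervals from limma, in order of place in the pore. The 3 members called higher are red, the 4 called lower are blue, the 22 others are grey, and the dotted line is the median of all genes tested (-0.06).

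The groups did not overlap for 7 of the 29 members, 2 higher (Nup214 and Nup50) and 5 lower (Nup85, Nup188, Nup93, Nup153 and Ranbp2). The same held for 21.6% of all genes tested, 10.4% higher and 11.1% lower. Ranbp2 was the 1 member among them that did not pass the test, and Nupl1 passed it although its groups touched.

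Among the 9 members of the Y complex, the scaffold of the outer rings, 1 fell and 0 rose. Nup85, the subunit that carries Seh1l on an arm of the Y (chromosome 11, 115564434 to 115583985, plus strand), stood at 15.5, 9.47, 16.2 and 14.9 FPKM in scrambled replicates 1 to 4 and at 4.22, 5.08, 7.76 and 9.05 FPKM in Med13 morpholino replicates 1 to 4. Every Med13 morpholino library lay below every scrambled one, but scrambled replicate 2 came within 0.5 FPKM of the highest of them. The means were 14.02 ± 3.08 and 6.53 ± 2.26 FPKM (SD, n = 4 each), a difference of -1.02 ± 0.23 (SE) on the log2(FPKM + 1) scale (limma, adjusted p = 0.0125). Nup85 kept its call when any 1 library was left out (adjusted p 0.00549 to 0.0473).

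The other 8 members of the Y complex did not pass the test. Of them 7 had negative differences, as had 6522 of all 11755 genes tested. The median over the 9 was -0.28. Nup133, which sits at the tip of the stem and touches the membrane, had the largest difference of the 8. It stood at 4.17, 2.60, 4.38 and 4.39 FPKM in the scrambled libraries and at 1.76, 2.20, 2.92 and 3.68 FPKM in the Med13 morpholino libraries (difference -0.43 ± 0.20, limma adjusted p = 0.150). Scrambled replicate 2 lay among the Med13 morpholino values, and without it the difference was -0.57 (adjusted p = 0.0480). Sec13, which also serves in the COPII coat of secretory vesicles, differed by -0.35 (4.26 ± 0.523 against 3.17 ± 0.766 FPKM). Ahctf1, the subunit that docks the Y complex on chromatin after mitosis, differed by -0.32 (82.2 ± 17.2 against 64.6 ± 6.59 FPKM). Seh1l, the partner of Nup85, differed by -0.28, and the scaffold subunits Nup160 and Nup107 by -0.15 and -0.13. Nup43 and Nup37, the small propeller-shaped subunits of the arms, differed by -0.10 and 0.12. None of these differences passed the test, and that of Nup85 was not compared with theirs by a test.

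Of the 5 inner ring members 2 fell and 0 rose. Nup188, a large scaffold protein related to Nup205 (chromosome 2, 30286397 to 30344266, plus strand), stood at 7.23, 4.88, 8.44 and 9.41 FPKM in the scrambled libraries and at 4.27, 4.60, 4.21 and 4.88 FPKM in the Med13 morpholino libraries. The 4 Med13 morpholino values lay close together, and scrambled replicate 2 was level with the highest of them to 3 digits. The means were 7.49 ± 1.96 and 4.49 ± 0.312 FPKM and the difference was -0.60 ± 0.18 (limma, adjusted p = 0.0409). Nup188 kept its call when scrambled replicate 2 (adjusted p = 0.00642) or Med13 morpholino replicate 4 was left out and lost it when any of the other 6 libraries was (up to 0.112). Its exons share 7.88% of their bases with Gm14471 on the opposite strand, and the strand setting of the counting was not given.

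Nup93, which ties the channel proteins to the inner ring (chromosome 8, 94214564 to 94317227, plus strand), stood at 10.2, 10.2, 10.2 and 8.61 FPKM in the scrambled libraries and at 6.66, 6.51, 7.81 and 6.54 FPKM in the Med13 morpholino libraries. The groups were apart, with 3 values nearly equal in each and the remaining one between them. The means were 9.81 ± 0.801 and 6.88 ± 0.625 FPKM and the difference was -0.46 ± 0.14 (limma, adjusted p = 0.0437). It passed the threshold in 1 of the 8 fits that left out a library (up to 0.127).

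The remaining inner ring members did not pass. Nup35, which binds membrane and Nup93, stood at 23.0, 17.4, 26.0 and 25.1 FPKM in the scrambled libraries and at 25.5, 30.7, 31.6 and 38.3 FPKM in the Med13 morpholino libraries, so 3 of the 4 Med13 morpholino libraries lay above all scrambled ones (difference 0.45 ± 0.18, limma adjusted p = 0.102). With median-ratio scaling Nup35 was called higher (0.51, adjusted p = 0.0199). Nup205 had a mean of 4.01 ± 1.06 against 5.32 ± 1.59 FPKM (difference 0.33), opposite in sign to its relative Nup188. The 95% intervals of these 2 differences, -0.12 to 0.78 for Nup205 and -0.995 to -0.203 for Nup188, were apart, and the difference between the relatives was not tested. Nup155, a membrane-binding scaffold protein, had 8.93 ± 1.70 against 7.30 ± 1.25 FPKM (difference -0.26).

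The central channel is lined by a trimer of FG nucleoporins, Nup62, Nup54 and the product of Nupl1, of which 1 rose and 0 fell. Nupl1 stood at 7.32, 5.40, 9.77 and 8.76 FPKM in the scrambled libraries and at 14.3, 12.2, 9.74 and 13.3 FPKM in the Med13 morpholino libraries. Med13 morpholino replicate 3 was level with scrambled replicate 3, and the other 3 Med13 morpholino libraries lay above all scrambled ones. The means were 7.81 ± 1.90 and 12.4 ± 1.95 FPKM and the difference was 0.62 ± 0.19 (limma, adjusted p = 0.0422), with the call kept in 2 of 8 fits that left out a library and the difference at 0.40 with libraries weighted by their quality. The identity of this value is uncertain. The symbol has 1 transcript of 3913 bases, which GENCODE M21 assigns to the gene Gm49336, and only 44.9% of its bases lie in exons of the gene that M21 names Nupl1.

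Nup54 was lower in the means, at 9.68, 7.28, 9.41 and 10.6 FPKM in the scrambled libraries and 4.10, 6.13, 7.29 and 7.75 FPKM in the Med13 morpholino libraries (difference -0.51 ± 0.19, limma adjusted p = 0.0894). Only scrambled replicate 2 fell within the range of the Med13 morpholino group, and without it Nup54 was called lower (-0.60, adjusted p = 0.0472). Nup62, the FG protein at the core of the trimer, had 26.1 ± 3.68 against 32.5 ± 4.61 FPKM (difference 0.31). The 3 partners of this trimer thus had differences of both signs, with intervals of -0.92 to -0.09 for Nup54, -0.05 to 0.66 for Nup62 and 0.21 to 1.03 for Nupl1.

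At the cytoplasmic face 1 of 7 members rose and 0 fell. Nup214, an FG protein of the cytoplasmic filaments that binds the export receptor XPO1 (chromosome 2, 31974436 to 32053975, plus strand), stood at 65.1, 40.7, 74.3 and 71.5 FPKM in the scrambled libraries and at 149, 102, 92.2 and 136 FPKM in the Med13 morpholino libraries. All 4 Med13 morpholino libraries lay above all scrambled ones, and scrambled replicate 2 was the lowest of the 8. The means were 62.9 ± 15.3 and 120 ± 26.9 FPKM and the difference was 0.93 ± 0.22 (limma, adjusted p = 0.0154). It was called in all 8 fits that left out a library (adjusted p 0.0204 to 0.0410). Without scrambled replicate 2 the difference was 0.74, and with libraries weighted by their quality it was 0.61.

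Nup88, the direct partner of Nup214, did not pass the test, with 7.55 ± 0.671 FPKM in the scrambled and 7.74 ± 0.810 FPKM in the Med13 morpholino libraries (difference 0.03, 95% interval -0.28 to 0.34). That interval lies below the interval of Nup214, 0.45 to 1.41, though the difference between these partners was not tested. Ranbp2, the giant filament protein that binds Ran and acts as a SUMO ligase, stood at 36.5, 33.5, 33.3 and 31.0 FPKM in the scrambled libraries and at 22.0, 23.3, 28.3 and 27.7 FPKM in the Med13 morpholino libraries. All Med13 morpholino libraries lay below all scrambled ones, but the difference of -0.40 ± 0.15 did not pass the test (limma, adjusted p = 0.0853).

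The remaining cytoplasmic members did not pass the test. Nup98, an FG protein that works with Rae1 in mRNA export, had 19.8 ± 5.17 against 23.5 ± 2.58 FPKM (difference 0.27). Rae1 itself had 15.5 ± 2.58 against 13.9 ± 2.24 FPKM (difference -0.14). Nupl2, which binds the export factor Gle1, had 2.40 ± 0.845 against 1.79 ± 0.469 FPKM (difference -0.27). Aaas, which encodes the protein ALADIN, had 2.14 ± 0.489 against 2.39 ± 0.244 FPKM (difference 0.12). Adjusted p lay above 0.3 for all 4 of them.

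The nuclear basket was the only place with calls in both directions: of 3 members 1 rose, 1 fell and 1 did not pass. Differences of both signs, called or not, were found in every place. Nup153, an FG protein that anchors the basket to the pore (chromosome 13, 46679905 to 46727940, minus strand), stood at 57.4, 83.7, 48.4 and 47.5 FPKM in the scrambled libraries and at 38.2, 32.4, 31.0 and 30.9 FPKM in the Med13 morpholino libraries. Every Med13 morpholino library lay below every scrambled one. Scrambled replicate 2, low for most nucleoporins, was the highest of all here. The means were 59.3 ± 16.9 and 33.1 ± 3.43 FPKM and the difference was -0.79 ± 0.19 (limma, adjusted p = 0.0168). Without scrambled replicate 2 it was -0.61 (adjusted p = 0.0202), and the call was lost when Med13 morpholino replicate 2 or 3 was left out (up to 0.0538).

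Nup50, a mobile partner of Nup153 that helps importin alpha release its cargo (chromosome 15, 84923411 to 84942963, plus strand), stood at 9.45, 6.92, 8.38 and 8.71 FPKM in the scrambled libraries and at 13.6, 10.9, 10.5 and 14.9 FPKM in the Med13 morpholino libraries. All Med13 morpholino libraries lay above all scrambled ones. The means were 8.36 ± 1.06 and 12.5 ± 2.14 FPKM and the difference was 0.52 ± 0.16 (limma, adjusted p = 0.0468). This was the call nearest to the threshold, and it held in 0 of the 8 fits that left out a library (0.0594 to 0.103). The 95% intervals of the 2 basket partners, -1.21 to -0.37 for Nup153 and 0.16 to 0.88 for Nup50, were apart, without a test of the difference between them.

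Tpr, the long coiled-coil protein that forms the basket's filaments, stood at 173, 147, 203 and 180 FPKM in the scrambled libraries and at 153, 173, 205 and 217 FPKM in the Med13 morpholino libraries. The groups overlapped over most of their range (difference 0.08 ± 0.17, limma adjusted p = 0.765). Summed over 14 transcripts this total is not comparable between genes, since a fragment may count for several transcripts.

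**Figure D3:**
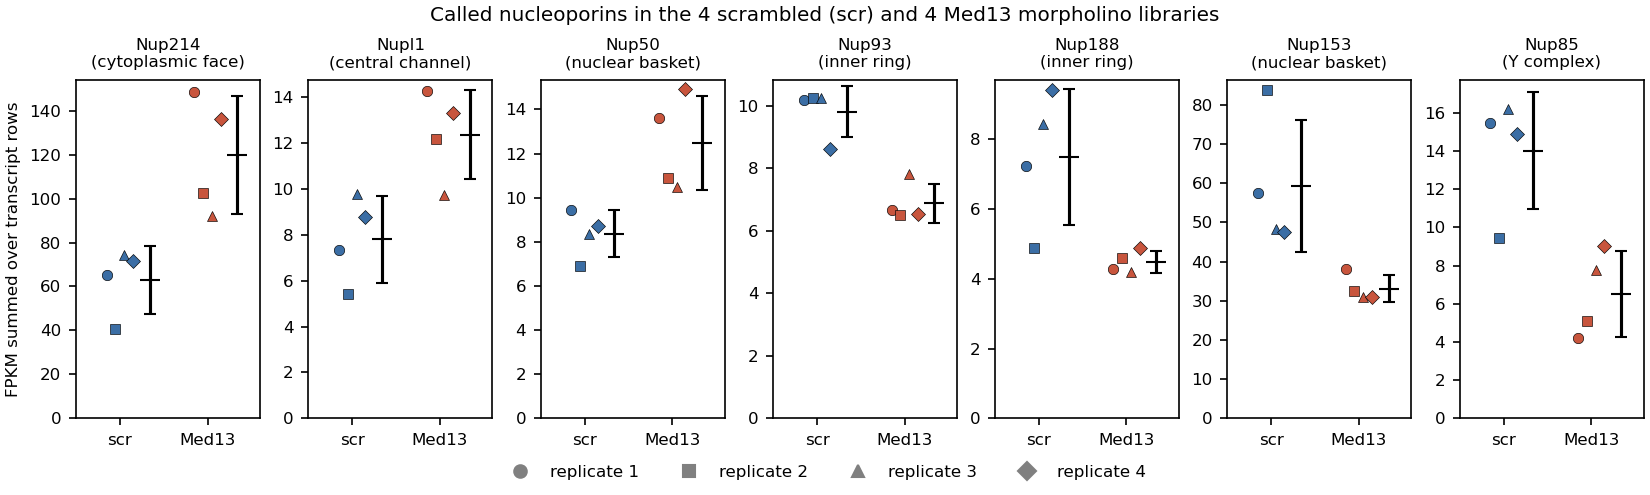
Summed FPKM of the 7 nucleoporins that passed the test, in each of the 4 scrambled (blue) and 4 Med13 morpholino (red) libraries, with the mean and SD beside the points and axes starting at 0. The groups are apart for all but Nupl1, by the narrowest margin for Nup188, and the square of scrambled replicate 2 is the lowest of its group for Nup214, Nupl1, Nup50, Nup188 and Nup85 and the highest for Nup153.

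No member of the membrane ring passed the test. Pom121, a transmembrane nucleoporin with FG repeats, stood at 45.8, 43.1, 71.4 and 78.9 FPKM in the scrambled libraries and at 36.8, 46.9, 49.1 and 73.9 FPKM in the Med13 morpholino libraries. It varied by a similar amount within both groups (difference -0.20 ± 0.25, limma adjusted p = 0.606), and its exons share 11.9% of their bases with Nsun5 on the opposite strand. Ndc1, a transmembrane protein of the pore, had 2.97 ± 0.756 against 2.998 ± 0.494 FPKM (difference 0.02). Nup210, the remaining transmembrane member, was listed at 0.630, 0.0268, 0.401 and 0.395 FPKM in the scrambled libraries and at 1.06, 0.930, 0.429 and 0.513 FPKM in the Med13 morpholino libraries. Its most abundant transcript rested on 0 to 16 fragments per library, so it was too low to test.

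For the 22 members that were tested and did not pass, the 95% intervals reached from -0.92 to 0.83, and the median SE over the 29 was 0.18. Some of these intervals hold differences as large as those of Nupl1 and Nup188, so a p that misses the threshold does not show that a member was unchanged.

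The transcripts of a gene could also be tested 1 by 1. The 30 members had 145 transcripts in the table, of which 85 had a mean of at least 1 FPKM, and 12 of these (14.1%) passed the test, against 15.7% of all 21052 transcripts tested. This way of testing was added after the values had been seen. The 12 came from 5 genes: 7 of 11 transcripts of Nup214 and the 1 of Nupl1 were higher, and 2 of 3 tested of Nup85, 1 of 2 of Nup188 and 1 of 5 of Nup153 were lower. The single transcript of Nup50 (adjusted p = 0.0535) and both of Nup93 (0.0633 and 0.0718) came close to the threshold, and 0 of 14 of Tpr passed.

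The most abundant transcript of Nup214 was the coding one of 6605 bases. It stood at 22.2, 13.2, 23.4 and 25.1 FPKM in the scrambled libraries and at 62.1, 38.5, 35.6 and 52.4 FPKM in the Med13 morpholino libraries (difference 1.14 ± 0.24, limma adjusted p = 0.00735). All Med13 morpholino values lay above all scrambled ones. The 3 transcripts of Nup214 annotated as retaining an intron did not pass, with differences of -0.38, 0.10 and 0.08, and neither did a coding transcript of 466 bases (0.44, adjusted p = 0.105). The one of 738 bases was lower in every Med13 morpholino library (2.91 to 3.54 FPKM) than in any scrambled one (4.26 to 4.81 FPKM, adjusted p = 0.0675). Whether coding and intron-retaining transcripts differ in their response was not tested.

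In Nup153 the transcript that fell was the coding one of 6109 bases, which stood at 47.9, 75.5, 34.3 and 31.9 FPKM in the scrambled libraries and at 30.01, 23.7, 23.2 and 20.1 FPKM in the Med13 morpholino libraries (difference -0.87 ± 0.25, limma adjusted p = 0.0338). The groups were apart. The other 4 transcripts of Nup153, at a mean of at most 4.82 FPKM in either group, had negative differences that did not pass. In Nup85 the coding transcript of 2230 bases stood at 3.86, 2.24, 3.26 and 3.14 FPKM in the scrambled libraries and at 0.855, 0.734, 1.53 and 1.67 FPKM in the Med13 morpholino libraries (difference -0.92 ± 0.18, limma adjusted p = 0.00503), again without overlap. Transcripts of 1 gene share exons, so they are not independent measurements.

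**Figure D4:**
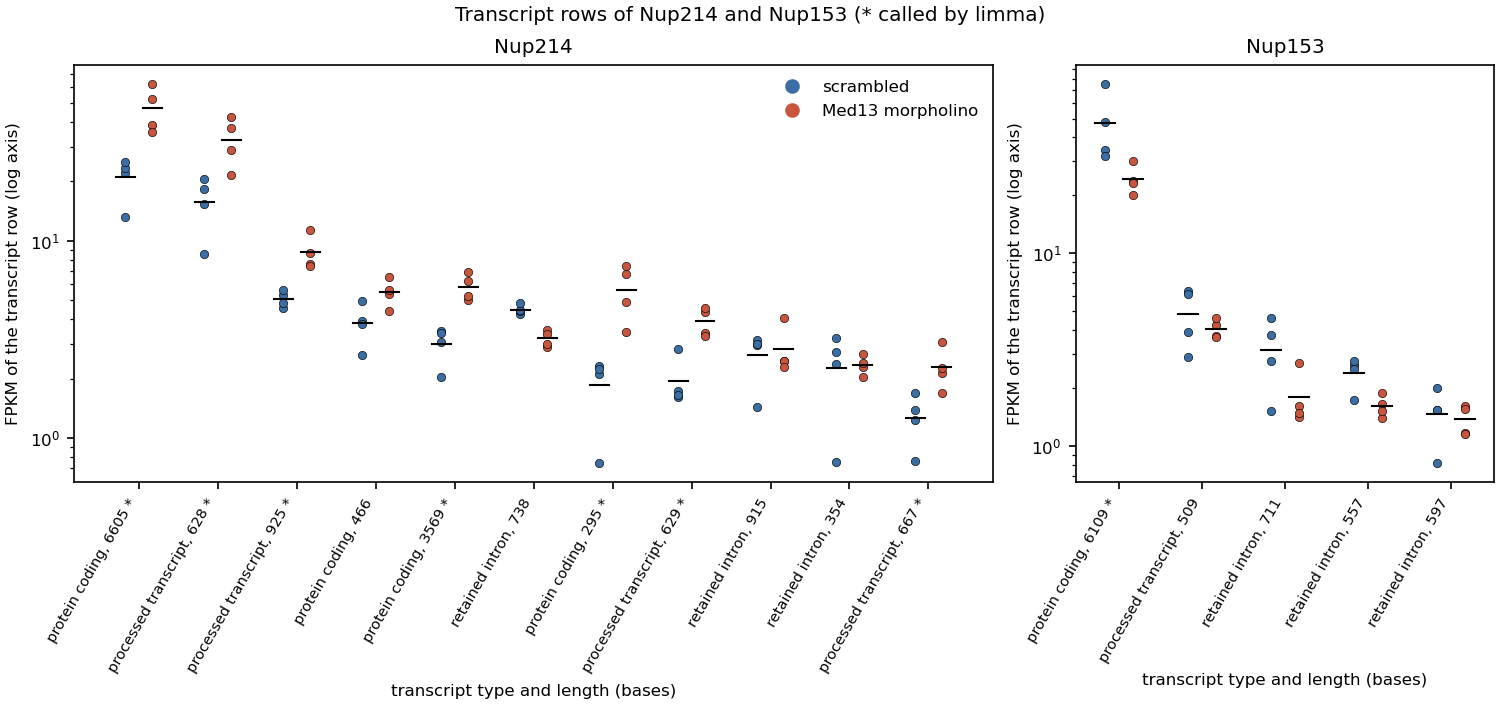
FPKM on a log axis of each tested transcript of Nup214 (11) and Nup153 (5) in the 4 scrambled (blue) and 4 Med13 morpholino (red) libraries, with group means as bars, ordered by level and labelled by annotated type and length in bases. The coding transcript of 6605 bases of Nup214 is higher and that of 6109 bases of Nup153 lower in all Med13 morpholino libraries, while 3 intron-retaining transcripts and 1 coding transcript of Nup214 carry no asterisk.

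Genes that work with the pore were counted in the same fit. The 7 lists of such partners held 106 symbols, of which 103 were found and 94 were tested. Of these 94, 1 was called higher and 15 lower, 17% in all against 17.1% of all genes tested. Their median difference was -0.16, against -0.06 over all genes. The share called was at the background, with 15 of the 16 calls lower where all genes tested had 7.81% called lower and 9.29% higher.

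Of 24 transport receptors, which carry cargo through the FG channel, 5 fell and 0 rose. Kpna4, an importin alpha, fell from 7.11 ± 0.703 to 3.05 ± 0.761 FPKM (difference -1.02 ± 0.17, limma adjusted p = 0.00245). Kpna6, another importin alpha, fell from 18.8 ± 1.01 to 11.4 ± 1.34 FPKM (difference -0.67), and Tnpo1, the transportin that imports many RNA-binding proteins, from 25.9 ± 2.99 to 16.2 ± 0.987 FPKM (difference -0.64). Of 21 mRNA export factors 2 fell, Thoc7 (difference -0.81) and Thoc2 (difference -0.52), both subunits of the THO complex that couples transcription to export. Of the 8 genes of the Ran cycle, which gives transport its direction, 0 were called, as were 0 of the 2 nucleoporins tested outside the member list.

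Of 12 tested genes of the lamina and nuclear envelope 3 fell: Lemd3, an inner membrane protein (13.0 ± 2.58 to 6.004 ± 1.26 FPKM, limma adjusted p = 0.0042), Zmpste24, the protease that matures lamin A (difference -0.85), and Lbr, the lamin B receptor (difference -0.61). Of 15 tested genes of pore assembly and surveillance 3 fell and 1 rose. Rtn4, a reticulon that bends membrane, fell from 74.5 ± 4.98 to 39.0 ± 3.92 FPKM (difference -0.92 ± 0.15, limma adjusted p = 0.00189). Vps4a and Vps4b, the ATPases that take ESCRT filaments apart, fell by 0.86 and 0.65 on the log2 scale, while Chmp2a, a subunit of those filaments, rose by 0.66. Of 12 genes of the SUMO machinery 2 fell, Sumo2 (difference -0.67) and the SUMO protease Senp6 (difference -0.59). Among the partner genes named, Kpna4, Lemd3, Rtn4 and Vps4a kept their call under every alternative in which they were tested, and Thoc7, Thoc2, Lbr, Chmp2a and Sumo2 lost it in 4 to 7 of the 8 fits that left out a library.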

How the data were processed

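The authors deposited 1 table of FPKM values per transcript. Reads were handled with BWA and build mm10, per the submitters' processing notes, and RNA was amplified before library construction from 400 ng of cDNA, per the labels' protocols. Versions, counting method, annotation and strandedness were not given in the sources used here. Of 97496 rows, 3758 whose symbol holds a hyphen are shifted by 1 column and were left out (0 members among them). The column of scrambled replicate 1 holds text in those rows and FPKM elsewhere. Low values were multiples of 0.5 fragments (94.3% to 94.5% of values of up to 20 fragments, within 0.005), which gave library totals. Transcripts were summed per symbol, genes whose mean FPKM reached 1 kept, and log2(FPKM + 1) tested with limma 3.58.1 in R 4.3.3 (mean-variance trend, two-sided, Benjamini-Hochberg over 11755 genes, threshold 0.05). A pseudocount of 1 understates changes of low genes. The scripts were tested on simulated data. Members and lists were chosen with earlier results of these data known. All members are named, with full statistics for those called and for the largest uncalled difference of each place, and of each partner list up to 3 called genes in each direction. Intervals are 95%. Alternatives were another pseudocount (0.1), filters (none, 5 FPKM), median-ratio and quantile scaling, sample weights, main or protein-coding transcripts only, single transcripts, and leaving out each library. Gene positions are from GENCODE M21 (GRCm38, to which mm10 corresponds).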

Additional observations from a re-analysis of the deposited data

Results flagged for a closer look

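In 5 of 60 groups of 4 libraries (30 members in 2 groups), 1 library stood apart from the other 3 on the log2 scale by Dixon's criterion, which chance gives for about 3 of 60. Scrambled replicate 2 was the low one in 3 of them, all in the Y complex: Nup133 at 2.60 FPKM against 4.17 to 4.39, Nup107 at 8.91 FPKM against 13.1 to 13.9, and Nup85 at 9.47 FPKM against 14.9 to 16.2. Nup93 accounted for the other two, with scrambled replicate 4 at 8.61 FPKM against 10.2 in the other 3 libraries and Med13 morpholino replicate 3 at 7.81 FPKM against 6.52 to 6.66. In both groups the odd value of Nup93 was the one nearest to the opposite group.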

How the results depend on the processing

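Against 3 members called higher and 4 lower, no filter on low values gave 0 and 0 (2.89% of all 34976 genes called, against 17.1%), median-ratio scaling 4 and 2 (18.7%), sample weights 3 and 11 (36.9%), and leaving out 1 library 1 to 2 and 1 to 6 (8.13% to 20.3%). Without a filter the 7 adjusted p lay between 0.0584 and 0.117. What moved the counts was not tested for any setting. Nup214 and Nup85 kept their call in every setting run except the one with no filter. For partner genes, 1 higher and 15 lower became 0 and 9 with no filter (2.89% of all genes called) and 4 and 31 with sample weights (36.9%). They became 2 and 16 with the main transcript only (18.3%) and 3 and 15 with protein-coding transcripts only (18%). When a library was left out they were 0 to 1 and 5 to 17 (8.13% to 20.3%). The lowest count came without Med13 morpholino replicate 2. Some uncalled differences near 0 changed sign when a library was left out: over these 8 fits Nup107 ranged from -0.302 to 0.00768, Nup43 from -0.258 to 0.0054, Nup37 from -0.0176 to 0.226, Nup88 from -0.0287 to 0.0775, Ndc1 from -0.0695 to 0.127 and Med13 itself from -0.00105 to 0.101. Tpr changed sign with sample weights (-0.0161). Of the differences of the 29 members tested and the 14 partner genes named, 574 kept direction and side of the threshold, 82 lost their call, 12 gained one and 10 changed sign. No paired analysis was run. The library numbers in the sample titles alternate between the groups, but no label says that neighbouring numbers were collected together. The labels carry no replicate number. The replicate numbers used here follow the order of the samples and pair no library of a group with one of the other. RNA was amplified before sequencing, so the fragment totals bound counting error only.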
